A study of Mus musculus with 16 samples.

Results

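Matrix metalloproteases (MMPs), the related ADAMTS proteases, the ADAMTS-like proteins and the tissue inhibitors of metalloproteases (TIMPs) were examined in cultured mouse aortic smooth muscle cells. The members are the 42 of 20581 rows of the deposited gene table whose symbol is Mmp, Adamts, Adamtsl or Timp followed by a number, and they comprise 18 MMPs, 15 ADAMTS proteases, 5 ADAMTS-like proteins and 4 TIMPs. Of these, 38 passed the filter on low counts, a level of 1 CPM (counts relative to library size) reached by at least 4 libraries, which 14217 rows passed. Mmp9, Mmp24, Mmp25 and Adamts20 did not pass.

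The data are 16 total RNA libraries that form 4 groups of 4. The cells were primary cultures from collagenase-digested aortas of male C57BL/6J mice. KO cells came from RBC.ARG1 knockout mice, in which floxed Arg1 is deleted in the red blood cell lineage by a Cre recombinase under the erythropoietin receptor gene, and WT cells from RBC.ARG1 wild-type littermates, so the deletion is aimed at another cell lineage than the cultured cells. Whether WT mice carried the floxed allele or the Cre is not stated. DMEM cultures were kept in that medium with 10% fetal bovine serum. DIAM cultures spent 10 days in DMEM with 0.1 µM dexamethasone, a synthetic glucocorticoid, 1 µM insulin and 50 µg/mL L-ascorbic acid, a mixture meant to make the cells store lipid. The labels do not say whether DIAM also held serum, nor how old the mice were. How long the DMEM cultures were kept is not given here, so time in culture may also differ between the media. The design text speaks of biological replicates without saying whether each was a separate mouse, so the p-values measure the spread between these libraries.

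MMPs are zinc proteases that cut collagens, elastin and other proteins outside the cell, most of them after removal of a propeptide. TIMPs bind their active sites. ADAMTS proteases cut proteoglycans such as versican and aggrecan, trim procollagens, or act on fibrillin microfibrils, while the ADAMTS-like proteins resemble them but lack the catalytic domain. In the artery wall these enzymes are studied for medial elastin loss, plaque cap collagen and smooth muscle migration. Glucocorticoids are known to lower transcription of several MMP genes whose promoters bind AP-1, a dimer of Fos and Jun proteins.

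Libraries held between 37221192 and 47626331 counts. Arg1 itself, whose deletion is outside these cells, had between 0 and 49 counts per library, so it gives no check of the genotype labels. Smooth muscle markers (8 genes) summed to between 2290 and 4012 CPM in DMEM and between 1049 and 2100 CPM in DIAM. Acta2 and Tagln made up most of these sums. On average Acta2, Tagln, Cnn1, Smtn and Actg2 were lower in DIAM in both genotypes, while Myocd and Lmod1 were higher in both. Myh11 averaged 108 CPM in WT DMEM, 101 in WT DIAM, 102 in KO DMEM and 158 in KO DIAM. Fibroblast markers summed to between 1793 and 2227 CPM over all libraries and macrophage markers to between 906 and 2601 CPM, so the cultures were not free of other cell types or their transcripts. Xist was at 102 to 326 CPM in every library although all are labelled male, and the Y-linked genes of the list were not analysed here. Fewer cells of a type and less RNA per cell cannot be told apart in bulk samples.

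Compared per kb of transcript, the members with the highest levels in WT DMEM were Timp2, Timp3, Timp1, Mmp14 and Mmp2, in that order. Setting levels between genes this way assumes that the deposited values were not already corrected for length, which the labels do not settle. Levels here are CPM divided by the length of the longest protein-coding transcript in GENCODE M21 (GRCm38). In WT DMEM cells Timp2 stood at 678 ± 33.7 CPM per kb (SD, n = 4), Timp3 at 524 ± 51.9 and Timp1 at 338 ± 39.9. Mmp14, a membrane-bound collagenase that activates pro-Mmp2, led the MMPs at 255 ± 26.6 CPM per kb, followed by Mmp2 at 201 ± 13.1 and Mmp23 at 123 ± 8.23. The first ADAMTS protease was the procollagen-trimming Adamts2 at 88.3 ± 8.85 CPM per kb, above Adamts1 at 65.3 ± 7.68 and Adamts5 at 55.4 ± 3.03. In WT DMEM the ranges of Mmp14 and Mmp2 did not overlap, and neither did those of Adamts2 and Adamts1.

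In DIAM the order changed inside each family. Adamts1 rose to 246 ± 23.8 CPM per kb in WT DIAM and took 46.3 ± 2.5% of the summed per-kb level of the 14 tested ADAMTS proteases, against 23.7 ± 1.58% in WT DMEM. Timp2 took 63.3 ± 4% of the TIMP sum in WT DIAM and 71.7 ± 1.98% in KO DIAM, from 44.1 ± 2.82% in WT DMEM. Timp3 went from 34 ± 2.23% of the TIMP sum in WT DMEM to 9.05 ± 1.5% in WT DIAM.

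In WT cells 33 of the 38 tested members differed between DMEM and DIAM. Of these 19 rose and 14 fell at an adjusted p under 0.05, against 27.6% of all tested genes that rose and 27.5% that fell. In KO cells 18 rose and 18 fell, against 29.8% and 30.8% of all tested genes. The changes were also larger than those of most genes: 21 members in WT cells were called with an absolute log2 fold change of at least 1, 55.3% of the tested members against 15.1% of all tested genes, and 27 in KO cells, 71.1% against 17.1%. The median absolute log2 fold change of the members was 1.35 in WT and 1.49 in KO cells, against 0.29 and 0.34 over all tested genes. These counts describe the list and are no test of it. Markers of other cell types moved with the medium too. Of 5 tested Schwann markers 5 rose in WT and 3 in KO cells, and the sum of the list went from between 10.8 and 31.6 CPM to between 127 and 283 CPM in WT cells and from between 10.9 and 46.5 to between 32.3 and 91.4 CPM in KO cells. Of 7 endothelial markers 4 rose and none fell in WT cells and 5 rose and 1 fell in KO cells, with sums between 36.3 and 60.5 CPM in DMEM and between 77.6 and 126 CPM in DIAM. Of 8 smooth muscle markers 1 rose and 4 fell in WT cells and 2 rose and 4 fell in KO cells. Of 6 fibroblast markers 4 rose and 2 fell in each genotype, so their steady sum hides moves in both directions. In WT cells Dcn rose from 421 ± 77 to 840 ± 125 CPM, and Col14a1 fell from 1147 ± 89.7 to 603 ± 99.6 CPM. The part of any of these markers in the members' changes was not tested.

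Both genotypes called 32 members in the same direction, 18 higher and 14 lower, and none in opposite directions. Adamtsl1 was called in WT cells and not in KO cells. Adamts7, Mmp23, Mmp3 and Timp1 were called in KO cells and not in WT cells, and Adamts14 in neither. With edgeR no interaction of genotype and medium was called for any of these 5, whereas DESeq2 called that of Timp1 (-0.68, adjusted p = 0.0277). For the medium in WT cells the authors' deposited table does call Adamts7 (-0.43, adjusted p = 0.0312) and Adamts14 (0.37, 0.0228). The libraries of DMEM and DIAM did not overlap for 31 of the 33 members called in WT cells (93.9%, against 84.8% of all called genes) and for 30 of the 36 called in KO cells (83.3%, against 87.3%). Called genes without overlap made up 46.8% of all tested genes in WT and 53% in KO cells.

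**Figure D1:**
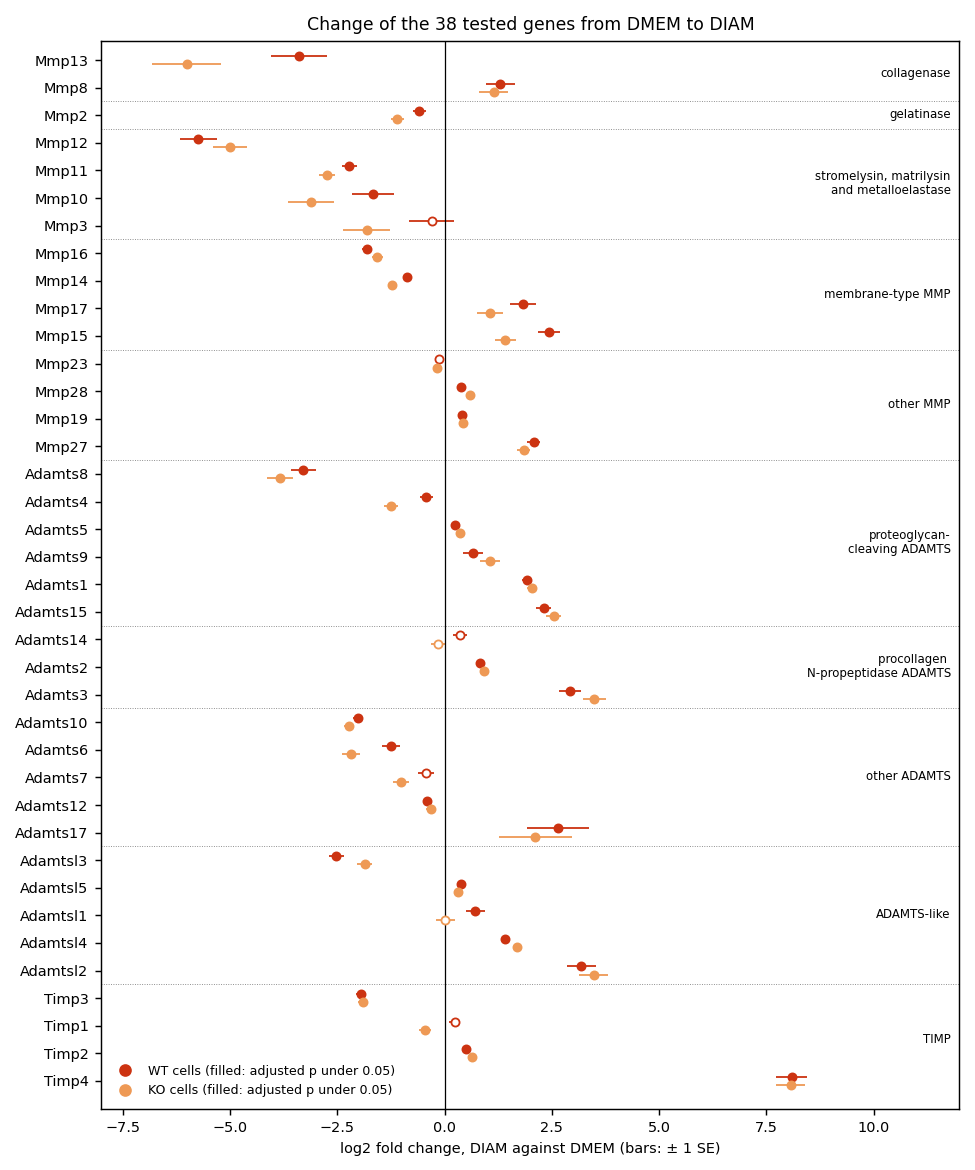
Log2 fold change from DMEM to DIAM (x axis) of the 38 tested members (y axis, grouped by role), in WT and KO cells, with bars of ± 1 SE; filled points have an adjusted p under 0.05. Timp4 stands apart on the right at 8.09 in WT and 8.07 in KO cells, and Mmp12 and Mmp13 lie farthest to the left.

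The 4 TIMPs took 4 different courses. Timp4, the TIMP best known from heart, brain and fat, was close to absent in DMEM and abundant in DIAM. In WT DMEM its 4 libraries read 0.278, 1.19, 0.19 and 0.223 CPM and in WT DIAM 107, 106, 134 and 149.8 CPM. KO DMEM read 0.89, 0.414, 0.269 and 0.862 CPM and KO DIAM 163, 154, 156 and 183 CPM. The 8 DIAM libraries were all far above the 8 DMEM libraries. The log2 fold change was 8.09 ± 0.35 (SE) in WT cells (adjusted p = 1.05e-10) and 8.07 ± 0.35 in KO cells (adjusted p = 6.82e-11). WT DMEM replicate 2 lay above the other DMEM libraries of its group, and without it the WT log2 fold change was 9.06. Adipocyte markers moved the same way: 4 of 4 tested (Adipoq, Plin1, Cidec and Lipe) rose in both genotypes, and their sum went from between 11.5 and 21.1 CPM in the DMEM libraries to between 329 and 1025 CPM in the DIAM libraries. Their part in the rise of Timp4 was not tested.

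Timp3, which binds to the matrix and also inhibits ADAMTS proteases, moved the other way. It read 2564, 2341, 2773 and 2219 CPM in WT DMEM and 734, 533, 720.3 and 595 CPM in WT DIAM. In KO cells it read 2623, 2227, 2499.6 and 1991 CPM in DMEM and 708, 564, 607 and 622 CPM in DIAM. The lowest DMEM library was above the highest DIAM library by a wide margin in both genotypes. Timp3 fell 3.83-fold in WT (log2 fold change -1.94 ± 0.12, adjusted p = 1.13e-09) and 3.73-fold in KO cells.

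Timp2, which takes part with Mmp14 in the activation of pro-Mmp2, rose modestly from a high level. WT DMEM read 2348, 2630.0, 2587 and 2492 CPM and WT DIAM 3489, 3459.8, 3638 and 3627 CPM. KO DMEM read 2571, 2162, 2643 and 2475 CPM and KO DIAM 3804, 3928, 4062 and 3593 CPM. The media did not overlap in either genotype, and the log2 fold changes were 0.50 ± 0.07 and 0.64 ± 0.07 (adjusted p = 1.23e-05 and 5.9e-07).

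Timp1, an inhibitor that blocks most soluble MMPs, showed no called change with medium in WT cells and a fall in KO cells. WT DMEM read 342, 261, 281 and 311 CPM and WT DIAM 369, 464, 285 and 289 CPM, and these ranges overlap. KO DMEM read 291, 336, 286 and 279 CPM and KO DIAM 213, 202, 222 and 232 CPM, and every KO DIAM library was below every KO DMEM library. The log2 fold change was 0.24 ± 0.13 in WT (adjusted p = 0.137) and -0.46 ± 0.13 in KO cells (adjusted p = 0.00678).

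**Figure D2:**
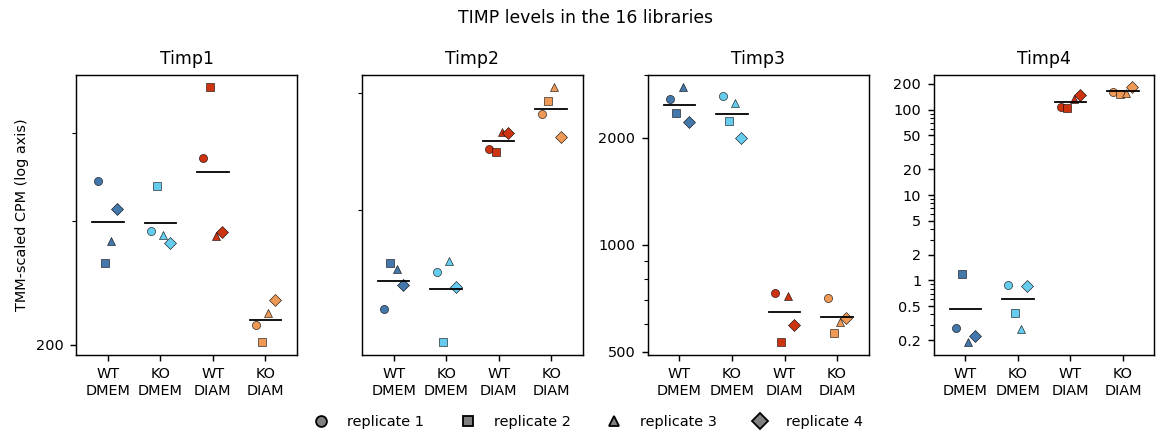
TMM-scaled CPM (log y axis) of Timp1, Timp2, Timp3 and Timp4 in each library by group; symbols are replicates and lines are group means. Timp4 lies between 0.19 and 1.19 CPM in the 8 DMEM libraries and between 106 and 183 CPM in the 8 DIAM libraries, while Timp3 falls in both genotypes.

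Timp1, Timp3 and Timp4 each lie inside a synapsin gene on the opposite strand in the GENCODE M21 annotation (GRCm38): Timp1 in Syn1, Timp3 in Syn3 and Timp4 in Syn2. The library kit does not mark strand. Timp4 shares 90 of its 5894 exonic bases with Syn2, Timp3 shares 1733 of 8144 with Syn3, and Timp1 shares none with Syn1. Syn2, a synaptic vesicle protein gene, was higher in DIAM too: its mean was 1.47 ± 0.129 CPM in WT DMEM and 19.4 ± 5.94 CPM in WT DIAM (SD, n = 4), and 1.74 ± 0.56 CPM in KO DMEM and 30.7 ± 2.97 CPM in KO DIAM. Its log2 fold changes were 3.71 ± 0.24 and 4.14 ± 0.24 (adjusted p = 4.21e-09 and 1e-09). Syn1 was not called in any comparison (2.98 ± 0.44 CPM in WT DMEM, 3.1 ± 0.52 CPM in WT DIAM). Reads of Timp4 and Syn2 that fall on shared bases cannot be told apart, and what part they have in either value was not tested.

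Among the classical secreted MMPs the collagenase Mmp13, the metalloelastase Mmp12 and the stromelysins Mmp10 and Mmp11 fell in both genotypes, while the collagenase Mmp8 and Mmp27 rose. On chromosome 9 the RefSeq annotation (GRCm38.p6) lists 10 MMP genes with no other protein-coding gene between them. The order is Mmp13, Mmp12, Mmp1b, Mmp3, Mmp1a, Mmp10, Mmp8, Mmp27, Mmp20 and Mmp7, of which the table used here holds 6. The first 4 of these 6 were lower in DIAM on average and the last pair were higher. Mmp1a, Mmp1b, Mmp7 and Mmp20 were not analysed here.

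The 250 bases before the RefSeq start of each of these 6 genes are printed to show which of them hold a known element near the start. They come from RefSeq on GRCm38.p6, plus strand, 5′ to 3′, and capitals mark TGANTCA, the AP-1 element (searched on both strands, and its own reverse complement). For Mmp12 the table holds 2 start sites, and the one with the element is printed.
Mmp13 (chr9:7272264-7272513): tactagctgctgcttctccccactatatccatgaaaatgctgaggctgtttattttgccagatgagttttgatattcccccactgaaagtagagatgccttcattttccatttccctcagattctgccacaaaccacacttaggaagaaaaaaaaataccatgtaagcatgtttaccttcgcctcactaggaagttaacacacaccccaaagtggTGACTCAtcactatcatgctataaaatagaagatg
Mmp12 (chr9:7347124-7347373): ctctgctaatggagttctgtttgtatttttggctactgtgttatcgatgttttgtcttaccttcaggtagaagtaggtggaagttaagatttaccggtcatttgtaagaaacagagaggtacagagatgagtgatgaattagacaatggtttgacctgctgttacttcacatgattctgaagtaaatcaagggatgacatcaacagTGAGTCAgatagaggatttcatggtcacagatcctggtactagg
Mmp3 (chr9:7445572-7445821): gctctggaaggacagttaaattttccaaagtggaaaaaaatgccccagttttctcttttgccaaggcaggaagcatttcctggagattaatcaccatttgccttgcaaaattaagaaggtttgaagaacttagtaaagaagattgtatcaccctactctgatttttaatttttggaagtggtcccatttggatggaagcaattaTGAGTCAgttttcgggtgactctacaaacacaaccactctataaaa
Mmp10 (chr9:7502092-7502341): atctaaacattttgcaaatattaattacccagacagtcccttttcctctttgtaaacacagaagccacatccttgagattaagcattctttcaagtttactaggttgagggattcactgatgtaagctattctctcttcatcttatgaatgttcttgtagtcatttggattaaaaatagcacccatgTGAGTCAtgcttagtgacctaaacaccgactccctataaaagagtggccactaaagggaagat
Mmp8 (chr9:7558179-7558428): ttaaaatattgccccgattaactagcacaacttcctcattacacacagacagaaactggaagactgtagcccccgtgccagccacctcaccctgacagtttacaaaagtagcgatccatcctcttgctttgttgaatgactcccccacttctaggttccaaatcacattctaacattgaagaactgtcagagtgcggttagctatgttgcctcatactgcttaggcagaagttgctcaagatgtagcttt
Mmp27 (chr9:7571146-7571395): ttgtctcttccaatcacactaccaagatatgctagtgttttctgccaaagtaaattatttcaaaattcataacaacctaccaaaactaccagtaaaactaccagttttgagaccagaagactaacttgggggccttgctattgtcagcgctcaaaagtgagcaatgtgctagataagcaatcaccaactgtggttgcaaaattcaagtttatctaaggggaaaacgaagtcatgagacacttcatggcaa

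The AP-1 element starts 35 bases before the Mmp13 start, 44 before that of Mmp12, 46 before that of Mmp3 and 63 before that of Mmp10. In Mmp13 it reads TGACTCA and in the other 3 it reads TGAGTCA. Of the 26 tested members with a RefSeq promoter entry, these 4 hold the element in a 300-base window from 250 bases before to 50 after a start. Counted by window, 4 of the 31 windows of all 29 members with an entry hold it, against 7.81% of all 32851 promoter windows. No member window holds ACANNNTGT, the core of the glucocorticoid receptor element, which 6.85% of all windows hold. Among the members called lower in both genotypes, 8 have an entry, and 3 of them hold the element (Mmp10, Mmp12 and Mmp13) while 5 do not (Adamts12, Adamtsl3, Mmp11, Mmp14 and Timp3). Mmp3, the other holder, was not called in WT cells. None of the 14 members with an entry that were called higher in both genotypes holds it. At the 7.81% of all windows, few or none of 14 would, so this absence is near the background. The 4 holders lie in the same chromosome 9 cluster and are not separate cases. A split by direction was not tested. These matches describe the letters and are no evidence of binding.

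Mmp13 cuts fibrillar collagen and ranged widely between libraries of one group. WT DMEM read 106, 35.3, 77.2 and 46.2 CPM and WT DIAM 4.21, 16.6, 1.8 and 2.14 CPM. KO DMEM read 44.6, 134, 31.2 and 71.8 CPM and KO DIAM 0.776, 0.778, 1.21 and 1.61 CPM. The media did not overlap in either genotype, although WT DIAM replicate 2 stood well above its group. The log2 fold change was -3.40 ± 0.66 in WT (adjusted p = 0.000488) and -6.01 ± 0.80 in KO cells (adjusted p = 1.38e-05), and without WT DIAM replicate 2 it was -4.61 in WT cells.

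Mmp12, the macrophage elastase, was at 9.03, 8.21, 5.78 and 9.4 CPM in WT DMEM and 0.164, 0.118, 0.205 and 0.107 CPM in WT DIAM. KO cells had 9.61, 11.5, 6.2 and 11.3 CPM in DMEM and 0.698, 0.122, 0.247 and 0.13 CPM in DIAM. Every DIAM library was below 1 CPM and every DMEM library above 5 CPM. The log2 fold changes were -5.74 ± 0.43 and -5.00 ± 0.39 (adjusted p = 1.4e-08 and 1.88e-08), and -5.85 in KO cells without KO DIAM replicate 1. Of 10 tested macrophage markers, 3 rose and 1 fell in WT cells and 1 rose and 4 fell in KO cells. Their sum ranged from 906 to 1940 CPM in WT DMEM and from 1113 to 1968 CPM in WT DIAM. In KO cells it ranged from 1189 to 2601 CPM in DMEM and from 1337 to 1781 CPM in DIAM. Lyz2 alone averaged 1193 ± 400 CPM in WT DMEM and 1039 ± 245 CPM in WT DIAM, so the sum mostly follows that gene. In WT cells Mrc1 went from 47 ± 16.5 to 253 ± 64.9 CPM, and Fcgr1 from 2.15 ± 0.901 to 0.355 ± 0.219 CPM. The part of these markers in the fall of Mmp12 was not tested. In the GRCm38 annotation Mmp12 shares 157 of 7237 exonic bases with Mmp1b on the opposite strand.

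Mmp3, a stromelysin that cuts proteoglycans and activates other MMPs, was called in KO cells alone. WT DMEM read 169.6, 70.5, 114 and 183 CPM and WT DIAM 68.8, 218, 60.6 and 88 CPM, which overlap. KO DMEM read 112, 387, 58.4 and 253 CPM and KO DIAM 54.8, 49.5, 51.8 and 74.2 CPM, which overlap through KO DMEM replicate 3. The log2 fold change was -0.30 ± 0.52 in WT (adjusted p = 0.65) and -1.82 ± 0.54 in KO cells (adjusted p = 0.00931).

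Mmp10, the other stromelysin of the cluster, was scarce throughout. It read 0.602, 0.904, 0.529 and 1.78 CPM in WT DMEM and 0.246, 0.379, 0.103 and 0.456 CPM in WT DIAM, 1.7, 1.63, 0.684 and 1.03 CPM in KO DMEM and 0.207, 0.0729, 0.0822 and 0.208 CPM in KO DIAM. The media were separate in both genotypes, with log2 fold changes of -1.67 ± 0.48 and -3.12 ± 0.53 (adjusted p = 0.00801 and 9.71e-05). Mmp10 reached 1 CPM in DMEM libraries only, so it passed the filter through the medium where it was higher. Both calls were also made with no filter. Mmp8, the neutrophil collagenase, rose by 1.30 ± 0.34 on the log2 scale in WT cells (0.885 ± 0.393 CPM in DMEM, 2.17 ± 0.482 in DIAM, adjusted p = 0.00397). In KO cells it rose by 1.14 ± 0.34 (0.799 ± 0.338 CPM in DMEM, 1.77 ± 0.449 in DIAM, adjusted p = 0.00902), and there the libraries overlapped. The 1 neutrophil marker in the table, S100a8, stayed at or below 0.219 CPM in every library.

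Mmp27 rose from 1.6, 1.27, 1.04 and 1.01 CPM in WT DMEM to 5.2, 5.61, 5.08 and 4.82 CPM in WT DIAM, and from 1.47, 1.6, 1.29 and 1.41 CPM in KO DMEM to 5.72, 5.37, 4.71 and 4.91 CPM in KO DIAM. The replicates lay close together and the media did not overlap. The log2 fold changes were 2.07 ± 0.15 and 1.84 ± 0.15 (adjusted p = 6.75e-09 and 1.97e-08).

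**Figure D3:**
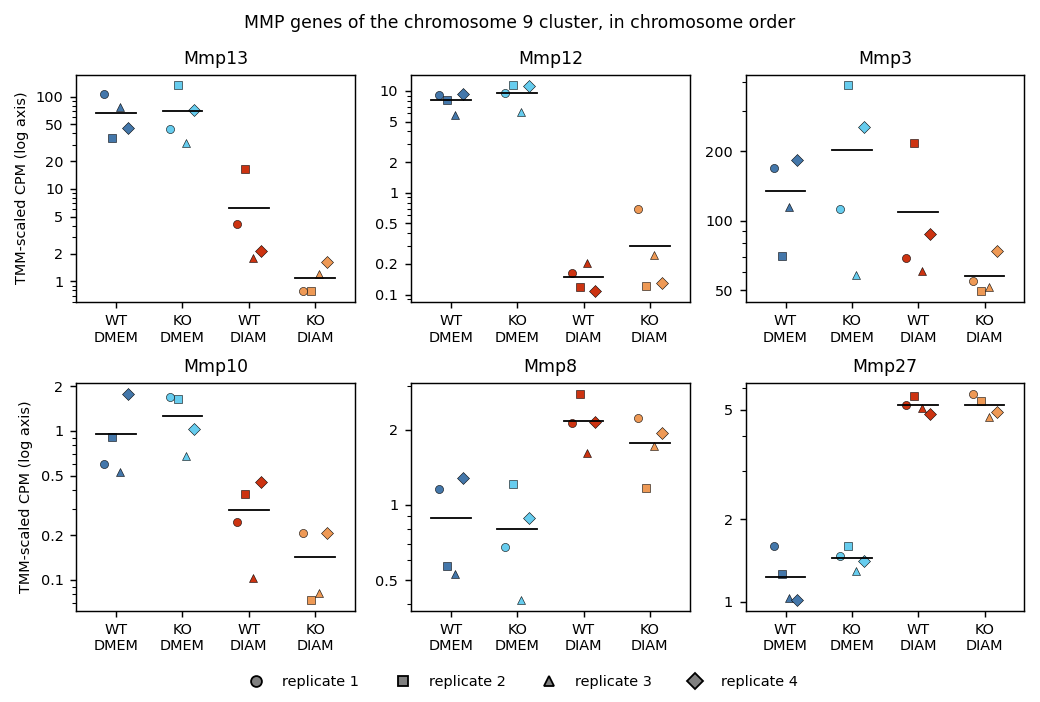
TMM-scaled CPM (log y axis) in each library, by group, for the 6 measured MMP genes of the chromosome 9 cluster in chromosome order; symbols are replicates and lines are group means. Mmp13 and Mmp12 fall with DIAM in both genotypes, Mmp8 and Mmp27 rise, and Mmp3 overlaps between media.

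Mmp11, a stromelysin outside that cluster that is processed inside the cell by furin, fell as well. It read 131, 160.4, 149.6 and 182 CPM in WT DMEM and 32.6, 47.3, 24.4 and 29.6 CPM in WT DIAM, 140.2, 164, 165 and 175 CPM in KO DMEM and 21.6, 20.7, 22.5 and 31 CPM in KO DIAM. No library overlapped between media, and the log2 fold changes were -2.22 ± 0.18 and -2.75 ± 0.19.

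Mmp2, the gelatinase that cuts basement membrane collagen, and Mmp14, its activator, fell together from high levels. Mmp2 read 577, 616, 674 and 611 CPM in WT DMEM and 409, 539.9, 349 and 353 CPM in WT DIAM. In KO cells it read 479, 699, 574 and 627 CPM in DMEM and 226, 262, 263 and 357 CPM in DIAM. The media did not overlap in either genotype. The log2 fold change was -0.59 ± 0.15 in WT (adjusted p = 0.00452) and -1.10 ± 0.16 in KO cells (adjusted p = 1.75e-05).

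Mmp14 read 764, 814, 952 and 778 CPM in WT DMEM, 442, 533, 404 and 421 CPM in WT DIAM, 741, 798, 807 and 805 CPM in KO DMEM and 306, 322, 332 and 394 CPM in KO DIAM. DIAM was below DMEM in every library. The log2 fold changes were -0.88 ± 0.10 and -1.22 ± 0.10 (adjusted p = 1.11e-06 and 2.09e-08).

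The other membrane-type MMPs divided. Mmp16, like Mmp14 anchored by a transmembrane helix, fell from 13.7, 13, 14.5 and 14.7 to 4.54, 3.91, 3.7 and 3.89 CPM in WT cells and from 13.3, 10.2, 16.2 and 11.7 to 4.37, 4.2, 4.55 and 4.26 CPM in KO cells, with log2 fold changes of -1.80 ± 0.12 and -1.57 ± 0.12. Mmp15, also a transmembrane enzyme, rose from 6, 4.55, 6.41 and 4.5 to 31.4, 37.7, 25.1 and 22 CPM in WT cells and from 3.82, 7.06, 4.42 and 4.88 to 8.41, 12.3, 14.8 and 18.2 CPM in KO cells (2.43 ± 0.25 and 1.41 ± 0.24). Mmp17, held by a glycolipid anchor, rose from 15.6, 11.8, 24 and 14.3 to 56.8, 87.9, 44.3 and 45.7 CPM in WT cells and from 13.5, 16.9, 11.9 and 12.3 to 15.6, 23.2, 32.8 and 41.9 CPM in KO cells (1.84 ± 0.30 and 1.06 ± 0.30). All but the KO comparison of Mmp17 were free of overlap between media.

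Of the remaining MMPs, Mmp19 rose in both genotypes, from 83.4 ± 4.1 to 111 ± 7.36 CPM in WT cells (log2 fold change 0.41 ± 0.05), and so did Mmp28, also called epilysin, from 9.04 ± 1.08 to 11.9 ± 0.789 CPM (0.39 ± 0.10). Mmp19 shares 789 of its 3533 exonic bases with Tmem198b on the opposite strand in the GRCm38 annotation. Mmp28 shares 466 of 3874 with 1700020L24Rik in the same way. Further members share exonic bases with opposite-strand genes, among them Adamts8 (489 of 4613 with Gm29724) and Adamts9 (1381 of 15048 with A730049H05Rik). What part these overlaps have in the values was not tested. Mmp23, which lacks the hemopexin domain common to most MMPs, stood at 176 ± 11.8 CPM in WT DMEM and 160.1 ± 12.8 CPM in WT DIAM and was not called there (adjusted p = 0.135). In KO cells it was called at a log2 fold change of -0.19 ± 0.07 (adjusted p = 0.0391), a call lost without any of 5 single libraries, namely KO DMEM replicates 3 and 4 and KO DIAM replicates 1, 2 and 4, where the adjusted p ranged from 0.0595 to 0.161.

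Among the 6 tested proteoglycan-cleaving ADAMTS proteases, 4 rose and 2 fell in each genotype. Adamts1 was the most abundant of the ADAMTS proteases in DIAM. It read 305, 321, 369 and 280.0 CPM in WT DMEM and 1177, 1059, 1228 and 1338 CPM in WT DIAM, and 286, 299.8, 275 and 360.3 CPM in KO DMEM against 1199, 1239, 1249 and 1302 CPM in KO DIAM. Every DIAM library was far above every DMEM library in both genotypes. The fold change was 3.77 in WT (log2 1.91 ± 0.10, adjusted p = 1.68e-10) and 4.09 in KO cells.

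Adamts15, which cuts versican and aggrecan, read 23.9, 29.9, 34.6 and 36.2 CPM in WT DMEM and 117, 169, 140.5 and 191 CPM in WT DIAM. KO cells read 23.9, 37.4, 30.4 and 35.6 CPM in DMEM and 165, 184, 182 and 209 CPM in DIAM. The media were separate, with log2 fold changes of 2.31 ± 0.17 and 2.54 ± 0.17. Adamts5, a main aggrecanase, rose slightly, by 0.24 ± 0.07 on the log2 scale in WT cells (598 ± 32.7 CPM in DMEM, 708 ± 47.3 in DIAM, adjusted p = 0.00638) and by 0.36 ± 0.07 in KO cells (adjusted p = 0.000281). Adamts9, another versican-cutting enzyme, rose by 0.66 ± 0.23 in WT cells (18.2 ± 2.68 CPM in DMEM, 28.8 ± 8.59 in DIAM, adjusted p = 0.0257) and by 1.06 ± 0.23 in KO cells (19.8 ± 6.32 and 41.3 ± 6.48 CPM, adjusted p = 0.00112). Leaving out WT DMEM replicate 1 or 2 or WT DIAM replicate 3 or 4 ended its WT call, with adjusted p from 0.0531 to 0.0949.

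Adamts8 fell close to its detection limit, from 2.55, 2.3, 3.17 and 3.04 to 0.246, 0.213, 0.257 and 0.402 CPM in WT cells and from 3.48, 2.79, 2.93 and 1.72 to 0.0776, 0.219, 0.219 and 0.234 CPM in KO cells (-3.30 ± 0.29 and -3.84 ± 0.31). Adamts4, the aggrecanase that answers to inflammation in many tissues, read 36, 34.1, 43.6 and 35.4 CPM in WT DMEM, 29.2, 33.1, 23.5 and 24.8 CPM in WT DIAM, 35.5, 41.6, 38.3 and 37.5 CPM in KO DMEM and 11, 15.7, 16.4 and 21.1 CPM in KO DIAM. The media did not overlap in either genotype. Its log2 fold change was -0.43 ± 0.15 in WT (adjusted p = 0.0239) and -1.25 ± 0.15 in KO cells (adjusted p = 4.09e-06). The WT call was lost without WT DMEM replicate 3, WT DIAM replicate 3 or WT DIAM replicate 4, with adjusted p from 0.0679 to 0.075.

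Of the procollagen-trimming proteases, Adamts2 rose from 641 ± 64.3 to 1132 ± 33.1 CPM in WT and from 609 ± 62.6 to 1145 ± 47.3 CPM in KO cells (0.82 ± 0.08 and 0.91 ± 0.08). Adamts3 rose from 1.09, 0.723, 0.698 and 0.767 to 5.64, 4.07, 6.78 and 8.31 CPM in WT cells and from 0.655, 0.646, 1.29 and 0.742 to 9.13, 11.1, 10.03 and 7.56 CPM in KO cells (2.91 ± 0.26 and 3.49 ± 0.26), with no overlap. Adamts14 stayed near 5 CPM in both media and was called by edgeR in neither genotype (0.36 ± 0.16 and -0.16 ± 0.16). Its WT libraries did not overlap between media.

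Adamts10, which acts on fibrillin microfibrils, fell from 87.9, 99.8, 86.9 and 102 to 22.7, 24.4, 23.7 and 22.6 CPM in WT cells and from 86.3, 118, 122 and 83 to 20.8, 20.02, 25.1 and 21.7 CPM in KO cells, and no library overlapped (-2.01 ± 0.12 and -2.22 ± 0.12). Adamts6, its close relative, fell from 11.9, 10.1, 10.9 and 9.58 to 3.91, 6.06, 3.47 and 4.53 CPM in WT cells and from 9.74, 14.6, 11.4 and 11.2 to 1.53, 2.41, 2.96 and 3.46 CPM in KO cells (-1.24 ± 0.21 and -2.18 ± 0.22). Adamts12 fell slightly (-0.41 ± 0.10 and -0.33 ± 0.10), and Adamts7, which shares cartilage matrix substrates with it, was called in KO cells (-1.02 ± 0.19) and not in WT cells (-0.42 ± 0.18). Adamts17, another protease tied to fibrillin, rose from a near-absent level, 0.37, 0.904, 0.466 and 0.0247 to 2.3, 5.09, 2.39 and 1.21 CPM in WT cells and 0.183, 0.336, 0.122 and 0.0718 to 0.103, 0.34, 1.37 and 1.3 CPM in KO cells (2.64 ± 0.73 and 2.11 ± 0.85). Adamts17 reached 1 CPM in DIAM libraries only, so it passed the filter through the medium where it was higher. Its KO libraries overlapped, and the KO call (adjusted p = 0.0425) was lost without any of 9 single libraries. These were WT DMEM 1 and 3, KO DMEM 1, 3 and 4, WT DIAM 1 and 3 and KO DIAM 3 and 4, with adjusted p from 0.0507 to 0.126. It was also lost with no filter (0.0553) and with limma on log2(CPM + 1) (log2 fold change 0.52, adjusted p = 0.133).

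The ADAMTS-like proteins also moved in both directions. Adamtsl2, a fibrillin-binding protein, rose from 0.625, 1.76, 1.06 and 1.01 to 9.55, 8.05, 11 and 11.8 CPM in WT cells and from 1.36, 0.879, 2.32 and 0.527 to 14, 14.5, 15.7 and 12.4 CPM in KO cells (3.19 ± 0.34 and 3.47 ± 0.34). Adamtsl4, also a microfibril protein, rose from 37, 41.4, 39 and 33.7 to 104, 86.1, 109.8 and 97.8 CPM in WT cells and from 33.7, 37.2, 39.6 and 31.4 to 115, 107, 125 and 112 CPM in KO cells (1.40 ± 0.09 and 1.70 ± 0.09). Adamtsl3 fell from 134, 188, 183 and 168 to 25.5, 23.6, 30.2 and 37.5 CPM in WT cells and from 186, 126, 169.9 and 155 to 31.7, 50.3, 45.5 and 47 CPM in KO cells (-2.53 ± 0.18 and -1.87 ± 0.17). None of these 3 overlapped between media. Adamtsl5 rose slightly (0.38 ± 0.06 and 0.32 ± 0.06), and Adamtsl1 was called in WT cells (0.72 ± 0.22, adjusted p = 0.0106) and not in KO cells (0.01 ± 0.22, adjusted p = 0.963).

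The 4 members below the filter had few counts. Mmp9, the second gelatinase, ranged from 9 to 90 counts per library, with the highest value in KO DMEM replicate 2. Adamts20 ranged from 0 to 29 counts, Mmp24 from 0 to 16 and Mmp25 from 0 to 7. They were not tested with edgeR here. In WT cells Adamts20 had 3, 5, 3 and 0 counts in DMEM and 11, 11, 29 and 11 in DIAM, and Mmp9 had 25, 10, 17 and 12 counts in DMEM and 27, 26, 51 and 28 in DIAM, so the media did not overlap for either. The authors' deposited table calls both for WT cells, Adamts20 at a log2 fold change of 2.45 (adjusted p = 0.00557) and Mmp9 at 1.14 (adjusted p = 0.0159), and calls neither Mmp24 (0.194) nor Mmp25 (0.619).

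KO DMEM replicate 2 was also the highest of its group for Mmp3 and Mmp13 and had the highest macrophage sum of all 16 libraries, 2601 CPM, and the highest Schwann sum of the DMEM libraries, 46.5 CPM. The part of these in the member values was not tested.

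Genes acting with these proteases were counted from lists, and the counts are to be read against the 27.6% of all tested genes that rose and 27.5% that fell in WT cells and the 29.8% and 30.8% in KO cells. Of 12 tested genes for other inhibitors and clearance receptors, 8 rose and 1 fell in WT cells and 9 rose and none fell in KO cells, with a median log2 fold change of 1.39 and 1.30. Cst3, a cysteine protease inhibitor, rose from 1146 ± 89.6 to 2762 ± 155 CPM in WT cells (1.27 ± 0.11), and Spock2, a proteoglycan inhibitor, from 2.59 ± 0.503 to 46.2 ± 13 CPM (4.15 ± 0.38). Spock1 stood at 0.00529 CPM in WT DMEM, close to no reads, and at 1.68 ± 0.414 CPM in WT DIAM.

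Of 13 AP-1, Ets and Runx factors, 8 rose and 3 fell in WT cells and 6 rose and 2 fell in KO cells. Fos rose from 11.3 ± 1.94 to 42.4 ± 9.07 CPM in WT cells (1.90 ± 0.21), Fosl1 from 4.1 ± 0.445 to 19.1 ± 2.19 CPM (2.22 ± 0.11) and Ets1 from 41.4 ± 1.92 to 91.1 ± 3 CPM (1.14 ± 0.05).

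The plasminogen system (7 tested) had 2 genes higher and 3 lower in WT cells and 1 and 5 in KO cells. Its receptor Plgrkt fell (-0.66 ± 0.08 in WT cells), as did the activator Plau (-0.60 ± 0.12), while the inhibitor Serpinb2 rose from a very low level (0.197 ± 0.0582 to 1.46 ± 0.284 CPM). Activators and inducers of MMPs (8 tested) had 3 higher and 2 lower in WT and 2 and 2 in KO cells. The proprotein convertase Pcsk6 fell (-1.58 ± 0.19 in WT cells), Bsg, an MMP inducer, fell slightly (-0.31 ± 0.04), and the lysosomal protease Ctsl rose slightly (0.31 ± 0.05).

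ADAM and astacin proteases (11 tested) had 5 higher and 3 lower in WT and 4 and 4 in KO cells, with Adam19 falling (-0.82 ± 0.08 in WT) and Adam23 (0.59 ± 0.10) and Tll1 (0.57 ± 0.09) rising. Of 4 lysosomal and uptake genes, 1 rose and 1 fell in WT and 1 rose and 2 fell in KO cells. The collagen uptake receptor Mrc2 fell (-1.18 ± 0.10 in WT), the elastin-cutting cathepsin Ctss rose (1.18 ± 0.26), and Ctsk, which cuts collagen, was not called in WT (-0.32 ± 0.18). Of 4 tested proteoglycan substrates, 2 rose and 2 fell in each genotype. Versican (Vcan) rose (1.58 ± 0.22 in WT) and decorin (Dcn) rose (1.00 ± 0.13), while aggrecan (Acan) fell (-2.18 ± 0.53).

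Comparing KO with WT cells in DMEM, edgeR called no member and no other tested gene (0% of all tested genes). At an unadjusted p under 0.05 there were 0 members and 438 of all tested genes. Of the 38 members, 34 had an absolute log2 fold change under 0.3. The 3 smallest p-values belonged to Mmp27 (1.23 ± 0.271 CPM in WT, 1.44 ± 0.128 in KO), Adamts17 (0.441 ± 0.362 and 0.178 ± 0.115) and Adamts12 (167 ± 17.2 and 151 ± 24.7), each with adjusted p = 0.999842. DESeq2 and the authors' deposited table also called no member here, and over all genes they called 1 and 2. Without KO DMEM replicate 1 edgeR called 2 genes, neither a member, and without WT DIAM replicate 3 it called 1.

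In DIAM, KO cells had lower levels of 7 members than WT cells and a higher level of 1. Against a background of 4.95% of all tested genes lower and 3.43% higher, the lower members were Timp1, Mmp2, Mmp14, Mmp15, Mmp17, Adamts4 and Adamts6, and the higher one was Adamtsl3. Timp1 was at 352 ± 84.1 CPM in WT DIAM and 217 ± 12.7 CPM in KO DIAM (log2 fold change -0.70 ± 0.13, adjusted p = 0.012). Adamts4 differed by -0.79 ± 0.15 (adjusted p = 0.012), Mmp15 by -1.11 ± 0.23 (0.0156) and Mmp14 by -0.41 ± 0.10 (0.0205).

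Mmp2 differed by -0.58 ± 0.15 (adjusted p = 0.0356), Adamts6 by -0.80 ± 0.22 (0.0363), Mmp17 by -1.05 ± 0.30 (0.0436) and Adamtsl3 by 0.58 ± 0.17 (0.0493). The libraries of the 2 genotypes did not overlap for 6 of the 8 (75%, against 87.2% of all called genes), the exceptions being Mmp2 and Adamtsl3. Called genes without overlap made up 7.31% of all tested genes. The libraries were also separate for 4 members that edgeR did not call, Adamts14, Adamtsl2, Mmp13 and Timp4. The authors' deposited table calls all 4, Adamts14 (log2 fold change -0.48, adjusted p = 0.0444), Adamtsl2 (0.49, 0.00871), Mmp13 (-2.49, 0.0192) and Timp4 (0.41, 0.0154). Called or not, 26.3% of the tested members were separate against 16.4% of all tested genes.

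The 8 edgeR calls depended on the libraries in the fit, some more than others. In the fit of WT DIAM and KO DIAM alone, none of them and no other gene passed, with adjusted p from 0.0655 for Timp1 to 0.103 for Adamts6. Leaving out WT DIAM replicate 1, WT DIAM replicate 2, KO DIAM replicate 1 or KO DIAM replicate 2 left 3, 2, 3 and 2 lower members. Timp1 and Adamts4 kept their call without any 1 library, while Adamtsl3 kept it in 5 of the 16 and Mmp17 in 8. Mmp17 and Adamtsl3 also lost their call with no filter (adjusted p = 0.0719 and 0.0726), and Mmp17 is not called in the authors' deposited table (0.0529).

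Markers of other cells differed between the same libraries. Of 4 adipocyte markers 2 were called higher in KO DIAM, Lipe and Plin1, and the list summed to 567, 329, 668 and 664 CPM in the 4 WT DIAM libraries and 1025, 969.8, 708 and 912 CPM in the 4 KO DIAM libraries, which do not overlap. WT DIAM replicate 2 had the lowest adipocyte sum of the 8. None of the 5 tested Schwann cell markers was called in this comparison. The 6 Schwann markers in the table summed to 198, 283, 128 and 127 CPM in the 4 WT DIAM libraries and 32.3, 49.7, 74.1 and 91.4 CPM in the 4 KO DIAM libraries, which do not overlap. All 7 lower members were highest in WT DIAM replicate 2, which also had the highest Schwann sum, and all 7 were highest within KO DIAM in replicate 4, which had the highest Schwann sum of that group. In KO DIAM 6 of the 7 ranked the 4 libraries in the same order as the Schwann sum, and in WT DIAM 1 did. Without WT DIAM replicate 2 and KO DMEM replicate 2 together, 3 lower members remained called, Timp1 (log2 fold change -0.53, adjusted p = 0.0282), Adamts4 (-0.68, 0.0395) and Mmp15 (-0.96, 0.036). Of that pair only WT DIAM replicate 2 belongs to a group compared here. Without the library highest in Schwann markers of each DIAM group, WT DIAM replicate 2 and KO DIAM replicate 4, 6 lower members and no higher one were called, and of the 8 Adamts6 (-0.78, adjusted p = 0.0644), Mmp17 (-1.03, 0.0638) and Adamtsl3 (0.46, 0.224) lost their call. WT DIAM replicate 2 and KO DIAM replicate 4 also had the lowest smooth muscle sums of their groups. These were 1049 CPM (the others 1618 to 1720 CPM) and 1136 CPM (the others 1678 to 2100 CPM). In mesothelial markers WT DIAM replicate 2 was the lowest of its group at 101 CPM and KO DIAM replicate 4 the highest of its group at 569 CPM. The part of any of these marker lists in the genotype differences was not tested.

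**Figure D4:**
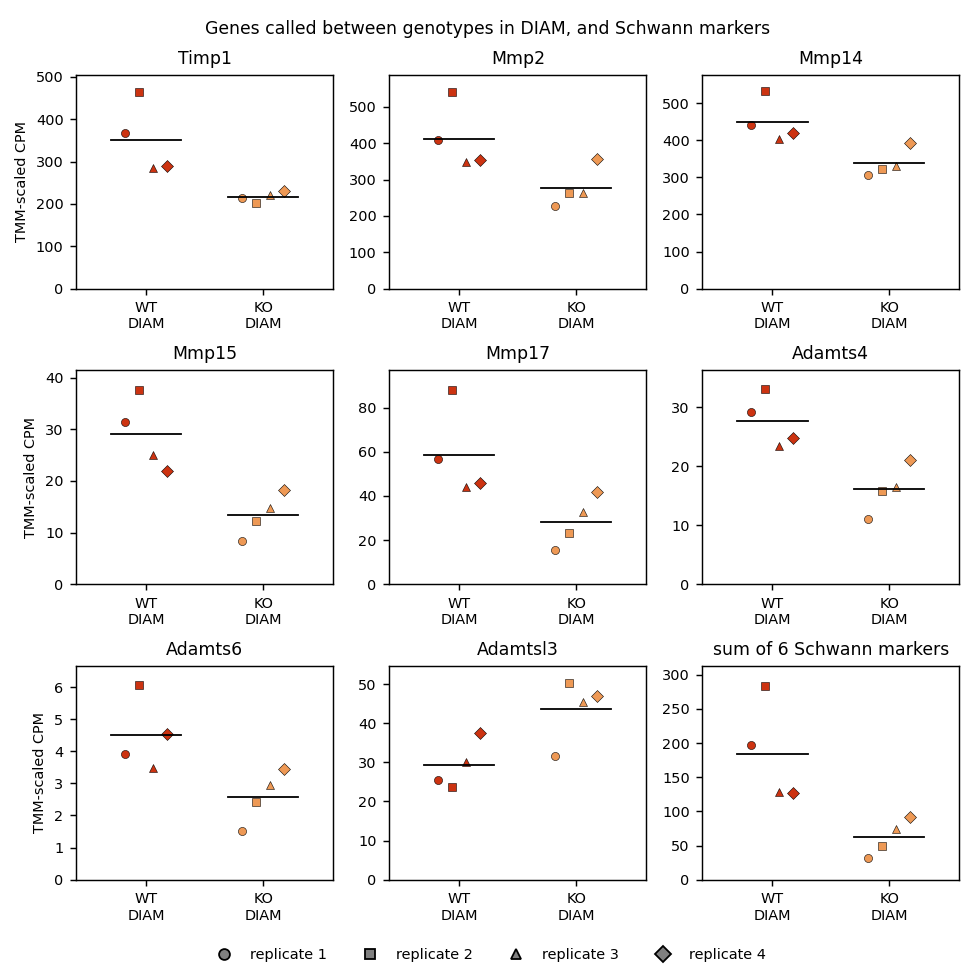
TMM-scaled CPM (linear y axis from 0) in the 8 DIAM libraries for the 8 members called between KO and WT cells in DIAM, with the sum of 6 Schwann markers in the last panel; symbols are replicates and lines are group means. WT DIAM replicate 2 is the highest library in the 7 panels where KO is lower and in the Schwann panel.

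For the difference in the medium's effect between genotypes, edgeR called no member and no other tested gene (0% of all tested genes). Unadjusted, 13 members and 2255 of all tested genes had a p under 0.05. The 3 smallest p-values were those of Adamts4 (interaction -0.82 ± 0.22 on the log2 scale, KO minus WT, adjusted p = 0.176), Timp1 (-0.69 ± 0.18, 0.176) and Adamts6 (-0.94 ± 0.30, 0.185). Other tools did make calls. DESeq2 called 97 genes higher and 128 lower, and among them were the members Adamts4 (-0.81, adjusted p = 0.0257) and Timp1 (-0.68, 0.0277). The authors' deposited table calls the same members (adjusted p = 0.0271 and 0.0295) among 104 higher and 130 lower genes. Without KO DMEM replicate 1 edgeR called 1 gene, which was not a member.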

How the data were processed

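Total RNA of 16 cultures was sequenced, 4 per group. The submitters' processing notes name Salmon 1.9.0, R 4.4.2, DESeq2 1.46.0, FastQC and the mouse build GRCm39. Per the labels the kit was unstranded with ribosomal RNA depletion. The library columns the authors deposited are labelled TPM, but their sums differ between libraries (37221192 to 47626331) and lie far above the fixed sum of TPM, so they were treated as estimated counts and rounded to whole numbers. Of the deposited values between 0 and 30, 28% lay within 0.05 of a whole number and 0.00102% were exactly whole. Whether they had been corrected for transcript length was not tested. The labels give 4 biological replicates in one text and triplicates in another, and 4 libraries per group were analysed. The deposited log2 fold changes and p-values are the authors' own, from 4 comparisons, and served here only as an alternative. The deposited mean signal per gene over all libraries was not used.

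Rows with at least 1 CPM in at least 4 libraries were tested with edgeR 4.0.16 (quasi-likelihood, robust, two-sided, TMM scaling) in R 4.3.3, all 4 groups sharing 1 model (12 residual degrees of freedom). Benjamini-Hochberg adjustment ran over all 14217 genes, and an adjusted p under 0.05 is a call. The interaction is the KO change minus the WT change. CPM values are TMM-scaled and given as mean ± SD (n = 4) unless single libraries are listed in replicate order, and a log2 fold change carries an SE, its size divided by the square root of F. Where a parenthesis gives 2 log2 fold changes, they are WT and then KO. The scripts were tested on simulated counts.

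The members and gene lists were chosen with earlier results of these data known. Named genes follow a rule: every tested member, with single libraries for TIMPs, Mmp2, Mmp14, members called with an absolute log2 fold change of at least 1.5 and members called for genotype, plus up to 3 genes per list with the smallest p in WT cells. The printed promoters, including that of Mmp8, were chosen after the values were seen. Promoters (29 members matched) come from RefSeq on GRCm38.p6, and overlaps and lengths from GENCODE M21 on GRCm38, another build than that of the files, so no coordinates of the files are given. Within groups, no 2 libraries agreed within counting noise. Same-numbered replicates matched best with their own number in 11 of 24 pairs, which leaves pairing unsettled, and the main fit used no block. Alternatives were median-ratio scaling, no filter, a 5 CPM filter, DESeq2 1.42.0, limma 3.58.1 on log2(CPM + 1), the compared groups alone, replicate blocks, a minimum log2 fold change of 1, the deposited p-values and leaving out each library. Leaving out WT DIAM replicate 2 with KO DMEM replicate 2 or with KO DIAM replicate 4, each the highest in Schwann markers of its group, was chosen after seeing the data.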

Additional observations from a re-analysis of the deposited data

Results flagged for a closer look

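In 8 of 152 gene-by-group sets of 4 libraries, 1 library lay far from the other 3 by Dixon's test. Chance alone flags about 1 in 20 such sets, so 8 is close to the number that chance gives. WT DIAM replicate 2 stood out for Mmp13 (16.6 CPM, the others 1.8 to 4.21 CPM) and Mmp28 (10.7 CPM, the others 12.1 to 12.3 CPM). WT DMEM replicate 2 stood out for Timp4 (1.19 CPM, the others 0.19 to 0.278 CPM), and WT DMEM replicate 3 for Adamts5 (647 CPM, the others 578 to 585 CPM).

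Among KO libraries, KO DMEM replicate 1 stood out for Mmp14 (741 CPM, the others 798 to 807 CPM), KO DMEM replicate 3 for Adamts3 (1.29 CPM, the others 0.646 to 0.742 CPM), KO DMEM replicate 4 for Mmp28 (7.59 CPM, the others 9.33 to 9.45 CPM) and KO DIAM replicate 1 for Adamts8 (0.0776 CPM, the others 0.219 to 0.234 CPM).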

How the results depend on the processing

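The counts of members called for medium stayed within 1.5 times of the main ones under every alternative run, with 1 exception: in WT cells 11 rather than 19 rose when a log2 fold change beyond 1 was required. No member reversed its direction in a comparison in which it was called. Beside the losses named with single libraries, with no filter the KO call of Mmp23 for medium was also lost (adjusted p = 0.0683), as it was in the fit of the 2 groups alone (0.0533). Leaving out 1 library gave 18 to 20 higher and 13 to 16 lower members in WT and 17 to 18 of each in KO cells.

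For KO against WT cells in DIAM, the 1 higher member became 0 with no filter, in the fit of the 2 groups alone, with the replicate block, with a minimum log2 fold change of 1 and without WT DIAM replicate 2 together with either KO DMEM replicate 2 or KO DIAM replicate 4. It became 2 with limma and 4 by the authors' deposited table, and 0 to 2 without single libraries. The 7 lower members became 11 with DESeq2, 0 in the fit of the 2 groups alone, 2 with the minimum log2 fold change, 3 without WT DIAM replicate 2 and KO DMEM replicate 2 and 2 to 10 without single libraries. For the interaction, 0 lower members became 2 with DESeq2 and 2 by the authors' deposited table. The cause was not tested, except that the 2-group fit has fewer libraries. Same-numbered libraries of different groups deviated together by over 0.1 in 13 of 24 pairs (r from -0.22 to 0.38). They matched best with their own number in 11 of 24. Between the media, r was 0.17, -0.09, 0.27 and 0.25 in WT cells and 0.32, 0.01, 0.15 and 0.28 in KO cells. Between WT DIAM and KO DIAM it was -0.08, -0.10, -0.20 and -0.04. Whether libraries of 1 number share an origin is not stated. With the replicate block, 20 members rose and 15 fell in WT cells, and the calls of Mmp17 (adjusted p = 0.0629) and Adamtsl3 (0.0551) between genotypes in DIAM were lost. With the block within each genotype the KO call of Adamts17 for medium was lost (0.0567). Depth limits Mmp9, Mmp24, Mmp25 and Adamts20 and the DIAM levels of Mmp10, Mmp12 and Adamts8. These last 3 reached 1 CPM in DMEM libraries only and Adamts17 in DIAM libraries only, so each passed the filter through that medium alone.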
